A study of Rattus norvegicus with 9 samples.

Results

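The beta-cell identity transcription factors examined here are Pdx1, Mafa, Neurod1, Nkx6-1, Nkx2-2, Pax6, Foxa2, Isl1 and Hnf4a, taken by gene name from the table of 20645 rat genes that was deposited with the RNA sequencing of INS-1E cells. All 9 genes were found, each under 1 identifier, and all 9 passed the filter of a mean of at least 1 FPKM (fragments per kilobase, scaled to gene length and sequencing depth) that left 12958 genes for testing. INS-1E is a clonal rat insulinoma line that makes insulin, and as a dividing tumour line it is a limited model of resting adult beta cells. The cells had been kept for 24 h in fatty-acid-free BSA alone (BSA group), in 0.5 mM palmitic acid (PA group), or in 0.5 mM PA together with 50 µM cyanidin-3-O-glucoside, an anthocyanin (PA + C3G group). Each group had 3 libraries of polyadenylated RNA. The methods describe experiments in general as biological replicates, but neither they nor the labels tie these libraries to separate cultures, so the p-values measure the spread between these samples, which may in part be technical.

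These factors form the network that sets up and keeps the beta-cell state. Pdx1, Nkx6-1, Nkx2-2, Isl1 and Pax6 carry a homeodomain, which binds short AT-rich sites, whereas Mafa is a basic leucine zipper protein, Neurod1 a basic helix-loop-helix protein that binds E-boxes, Foxa2 a forkhead protein that opens closed chromatin, and Hnf4a a nuclear receptor. Pdx1, Mafa and Neurod1 are best known for their joint action on the proximal insulin promoter, and Nkx6-1 for holding back genes of other islet cells. Loss of Mafa, Pdx1 or Nkx6-1 is a known feature of beta cells that fail in type 2 diabetes.

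Because rats have 2 insulin genes, the 250 bases before the start sites of both are shown as the place where these factors are known to meet. They were read from RefSeq (GRCr8). Capitals mark every match, on either strand, to TAAT (the core of homeodomain sites), CATCTG (the E-box of the insulin promoter) and GCTGA (the core of Maf sites). Neighbouring matches to TAAT can overlap each other, and in Ins2 the E-box overlaps a GCTGA match.
Ins1, chr1:261185869-261186118, plus strand: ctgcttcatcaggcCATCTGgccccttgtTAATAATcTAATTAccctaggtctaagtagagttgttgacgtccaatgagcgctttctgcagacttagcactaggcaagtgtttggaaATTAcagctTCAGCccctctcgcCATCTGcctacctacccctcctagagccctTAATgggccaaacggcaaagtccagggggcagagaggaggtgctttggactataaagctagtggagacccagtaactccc
Ins2, chr1:207273806-207274055, minus strand: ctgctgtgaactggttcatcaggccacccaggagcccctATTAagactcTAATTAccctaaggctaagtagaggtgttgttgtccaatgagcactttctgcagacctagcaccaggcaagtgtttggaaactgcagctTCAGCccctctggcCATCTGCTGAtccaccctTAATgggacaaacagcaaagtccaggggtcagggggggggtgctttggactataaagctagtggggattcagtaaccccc
The Ins1 window held 6 matches to TAAT, 2 to CATCTG and 1 to GCTGA, and the Ins2 window held 4, 1 and 2. Of 33469 promoters of the same length, 3.34% had at least 6 matches to TAAT and 10.8% had at least 4, 1.2% had at least 2 matches to CATCTG, and 13.8% had at least 2 to GCTGA. The 2 windows were identical at 205 of 238 aligned bases (86.1%).

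The table of promoters held 8 of the 9 factors, all but Mafa. The windows of Pdx1, Nkx2-2, Isl1 and Nkx6-1 are shown because these homeodomain genes moved in the comparisons given further on, and capitals have the same meaning.
Pdx1, chr12:12799157-12799406, minus strand: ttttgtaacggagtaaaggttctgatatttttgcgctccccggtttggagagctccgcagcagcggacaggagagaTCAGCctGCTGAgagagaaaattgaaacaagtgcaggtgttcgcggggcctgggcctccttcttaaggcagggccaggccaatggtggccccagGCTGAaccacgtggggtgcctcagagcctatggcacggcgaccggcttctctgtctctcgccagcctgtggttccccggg
Nkx2-2, chr3:155075623-155075872, minus strand: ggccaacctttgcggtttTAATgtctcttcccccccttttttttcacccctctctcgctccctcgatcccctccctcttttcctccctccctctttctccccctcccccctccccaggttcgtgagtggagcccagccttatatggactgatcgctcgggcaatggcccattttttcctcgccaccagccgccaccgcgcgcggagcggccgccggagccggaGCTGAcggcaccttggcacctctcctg
Isl1, chr2:49823443-49823692, minus strand: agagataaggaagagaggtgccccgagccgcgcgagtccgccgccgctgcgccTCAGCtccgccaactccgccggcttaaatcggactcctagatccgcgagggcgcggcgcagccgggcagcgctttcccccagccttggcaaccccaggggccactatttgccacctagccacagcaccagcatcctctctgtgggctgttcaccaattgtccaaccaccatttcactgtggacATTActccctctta
Nkx6-1, chr14:8273988-8274237, plus strand: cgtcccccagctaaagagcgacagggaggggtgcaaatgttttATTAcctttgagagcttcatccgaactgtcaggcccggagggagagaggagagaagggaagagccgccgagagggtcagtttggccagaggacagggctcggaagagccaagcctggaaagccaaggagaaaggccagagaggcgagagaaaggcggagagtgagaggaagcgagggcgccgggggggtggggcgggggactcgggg
None of these held CATCTG, which was found in only 14% of all promoters, so its absence here is common. Pdx1 had no TAAT and 3 matches to GCTGA, a number reached by 3.06% of promoters. Nkx2-2 and Isl1 had 1 match each to TAAT and to GCTGA, and Nkx6-1 had 1 match to TAAT and none to GCTGA. Of the windows that are not printed, that of Neurod1 held 4 matches to GCTGA, as many as 0.589% of promoters have at the least. The 2 RefSeq starts of Hnf4a held 1 and 5 matches to TAAT, and the first of them also held 1 match to CATCTG. At least 1 TAAT was found in 57.0% and at least 1 GCTGA in 45.2% of all promoters. A match describes the letters of a window and is not a binding site.

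Library totals of estimated counts lay between 45559993 (PA + C3G replicate 3) and 66730721 (PA + C3G replicate 1). The FPKM sums were 529922 to 541168 with BSA, 514322 to 516276 with PA and 531272 to 539038 with PA + C3G. Correlations between libraries (Pearson, log2 FPKM + 1, across genes, which are not independent replicates) were 0.981 to 0.985 within groups and 0.943 to 0.977 between groups. The beta-cell label fitted the markers, since all 7 listed beta-cell markers found in the table were tested and their summed level reached 44859 to 45606 FPKM with BSA, 18613 to 19334 with PA and 41234 to 47210 with PA + C3G. Most of this came from Ins1 and Ins2, and the other 5 markers summed to 4630 to 4908, 3242 to 3515 and 4362 to 4624 FPKM in the same order. The 4 stromal, endothelial and immune markers summed to at most 0.730 FPKM in any library. In bulk RNA, fewer cells of a kind and less RNA per cell cannot be told apart.

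In the control cells the 9 factors spanned a wide range of levels, all set side by side in FPKM, that is per gene length. Mafa was the most abundant at 381 ± 6.53 FPKM (SD, n = 3) and took rank 133 among the 20645 genes by its mean in BSA, followed by Pdx1 at 254 ± 8.75 FPKM (n = 3) on rank 229. Neurod1 (149.9 ± 2.43 FPKM, n = 3), Pax6 (116 ± 4.95, n = 3) and Nkx2-2 (95.5 to 104 FPKM, n = 3) came next. Foxa2 (52.4 ± 0.216 FPKM, n = 3), Nkx6-1 (50.0 ± 4.89, n = 3), Isl1 (40.7 ± 3.82, n = 3) and Hnf4a (30.0 ± 0.810, n = 3), on rank 3142, were lower. In this order only Foxa2 and Nkx6-1 had libraries that overlapped. From first to last base in the genome, the gene model of Mafa spans 1086 bases with 1 transcript and that of Hnf4a 62563 bases with 3 transcripts. A span can include introns, so it need not be the length behind the FPKM. For Neurod1 the table lists a long noncoding RNA over the same stretch of the same strand, so its reads are less certain.

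By mean, only Foxa2 and Nkx6-1 changed places in the treated cells. With PA the libraries of Mafa and Pdx1 overlapped, as did those of Pdx1 and Neurod1, while within each PA library the order Mafa, Pdx1, Neurod1 was kept and the shares given next did not overlap. Nkx6-1 stood above Foxa2 by mean with PA, with overlapping libraries, and apart from it with PA + C3G. Together the 9 factors summed to 1173 ± 16.9 FPKM in control cells, to 868 ± 74.0 FPKM after PA and to 1129 ± 97.0 FPKM after PA + C3G (SD, n = 3 each). As a share of that sum, which no scaling of a library can change, Mafa had 32.5% ± 0.675 in control cells, 24.3% ± 1.39 after PA and 27.6% ± 2.09 after PA + C3G (SD, n = 3 each). Pdx1 had 21.6% ± 0.440, 18.8% ± 0.893 and 22.4% ± 0.673 in the same order (n = 3 each). The shares of Nkx6-1 were 4.26% ± 0.374, 5.96% ± 0.580 and 6.73% ± 0.123 (n = 3 each), and did not overlap between BSA and either treated group. Neurod1 and Pax6, whose levels changed little, took 16.5% ± 0.300 and 12.9% ± 1.13 of the sum after PA, against 12.8% ± 0.158 and 9.85% ± 0.446 in control cells (n = 3 each).

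**Figure D1:**
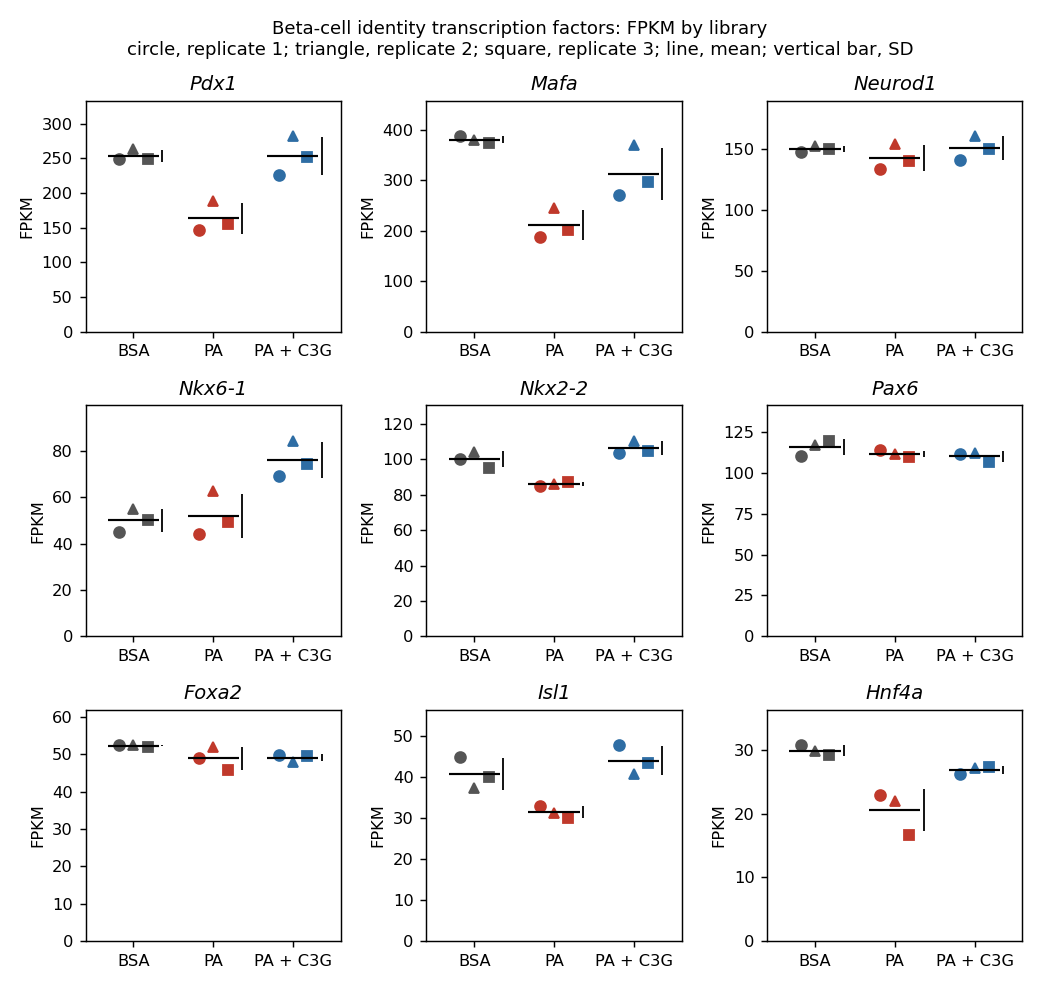
FPKM of each factor in every library (vertical axis, from 0), by group on the horizontal axis, with the mean as a horizontal line and the SD as a vertical bar (n = 3 per group). Pdx1, Mafa, Nkx2-2, Isl1 and Hnf4a dip with PA, Nkx6-1 is higher with PA + C3G than in the other groups, and the group means of Neurod1 (143 to 151 FPKM), Pax6 (109.9 to 116) and Foxa2 (49.0 to 52.4) lie close together.

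To see how the factors responded to the fatty acid, PA was compared with BSA. Of the 9 factors, 5 fell (Mafa, Pdx1, Hnf4a, Isl1 and Nkx2-2), none rose, and 4 (Neurod1, Nkx6-1, Pax6 and Foxa2) did not pass the threshold of an adjusted p-value of 0.05 by edgeR's quasi-likelihood test. The count of 0 higher was the same at an unadjusted p under 0.05 and with DESeq2 and limma. Among all 12958 genes tested, 25.2% were lower and 25.8% higher, so that calls were common in this comparison. The FPKM of the groups did not overlap for 6 of the 9, Foxa2 being the other one, against 59.9% of all genes. The median log2 fold change was −0.19 over the 9 factors and 0.0030 over all genes. No factor reached the fold change of 2 by which the study defined its DEGs.

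Mafa (ENSRNOG00000007668, chromosome 7 from 116780681 to 116781766 in the deposited table), which drives insulin transcription in mature beta cells, was at 388, 380.1 and 375 FPKM with BSA and at 188, 245 and 201 FPKM with PA. All PA libraries lay far below all BSA libraries, and replicate 2 was the highest of the PA group. A log2 fold change at −0.82 (standard error 0.12, adjusted p = 0.00033) was the largest fall among the 9, to 55.5% of the BSA mean in FPKM. Pdx1 (ENSRNOG00000046458, chromosome 12 from 9496044 to 9501213), needed both to form the pancreas and to keep insulin expressed, was at 249, 264 and 248 FPKM with BSA and at 147, 188 and 155 FPKM with PA. Here too the groups were well apart and replicate 2 was the highest in each. The log2 fold change was −0.61 (standard error 0.10, adjusted p = 0.000677), which left 64.3% of the BSA mean.

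Hnf4a (ENSRNOG00000008895, chromosome 3 from 159902441 to 159965003), a nuclear receptor that is mutated in a form of maturity onset diabetes of the young, was at 30.8, 29.9 and 29.2 FPKM with BSA and at 23.0, 22.0 and 16.7 FPKM with PA. The groups did not overlap, and PA replicate 3 was well below the other PA libraries. Its log2 fold change was −0.52 (standard error 0.10, adjusted p = 0.0019). Isl1 (ENSRNOG00000012556, chromosome 2 from 48487736 to 48501436), a LIM homeodomain factor that works with the cofactor Ldb1, was at 44.8, 37.3 and 40.0 FPKM with BSA and at 33.0, 31.2 and 30.0 FPKM with PA. The highest PA library stayed below the lowest BSA library, and replicate 1 was the highest in both groups. The log2 fold change was −0.35 (standard error 0.08, adjusted p = 0.00422).

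Nkx2-2 (ENSRNOG00000012728, chromosome 3 from 141408798 to 141411170), a homeodomain factor required for beta cells to form, was at 100.2, 104 and 95.5 FPKM with BSA and at 85.1, 85.9 and 87.2 FPKM with PA. The PA libraries lay close to each other and below all controls. The fall of 0.19 on the log2 scale (standard error 0.04, adjusted p = 0.00429) was the smallest of the 5.

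The other 4 factors did not pass the threshold, and the 95% intervals show the range of change that the spread of these samples allows. Nkx6-1 (ENSRNOG00000002149, chromosome 14 from 9555264 to 9562189) was at 45.1, 54.9 and 50.1 FPKM with BSA and at 44.3, 62.7 and 49.2 FPKM with PA. The groups overlapped, replicate 2 was the highest in both, and the log2 fold change of 0.08 had a 95% interval from −0.21 to 0.37 (adjusted p = 0.626). Without PA replicate 2 it was −0.077 (adjusted p = 0.572). Neurod1 (ENSRNOG00000005609, chromosome 3 from 66414308 to 66417741) ranged from 147 to 152 FPKM with BSA and from 134 to 154 FPKM with PA, and its interval was −0.18 to 0.09. Pax6 (ENSRNOG00000004410, chromosome 3 from 95707386 to 95728624), a paired-box and homeodomain factor, ranged from 110.0 to 119.6 FPKM and from 109.7 to 114 FPKM, with an interval of −0.12 to 0.07. Foxa2 (ENSRNOG00000013133, chromosome 3 from 142383278 to 142387481), which acts upstream of Pdx1, ranged from 52.1 to 52.5 FPKM with BSA and from 45.8 to 52.0 FPKM with PA. The control libraries of Foxa2 were so close that the groups did not overlap, yet the log2 fold change of −0.07 (interval −0.18 to 0.04, adjusted p = 0.257) did not pass.

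Next, the PA + C3G group was compared with the PA group. Of the 9 factors, 6 rose (Pdx1, Mafa, Nkx6-1, Isl1, Hnf4a and Nkx2-2), none fell (0 also at an unadjusted p under 0.05 and with DESeq2 and limma), and Neurod1, Pax6 and Foxa2 did not pass the threshold. Among all genes tested, 11.1% were higher and 10.2% lower. Scaled to equal FPKM sums, as TPM are, the libraries gave 775 genes higher and 2525 lower in place of 1436 and 1316, and limma on log2(FPKM + 1) gave 1065 and 1636, with all 6 factors still higher in both. The FPKM of the groups did not overlap for 6 of the 9 factors, against 39.5% of all genes. The median log2 fold change was 0.42 over the 9 factors and −0.00073 over all genes. The PA libraries enter both this comparison and that with BSA, so the values stand side by side and their opposite signs are not separate evidence.

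With PA + C3G, Pdx1 was at 226, 282 and 251 FPKM against 147, 188 and 155 with PA. No libraries overlapped, and replicate 2 was again the highest. The log2 fold change was 0.67 (standard error 0.10, adjusted p = 0.00199), the largest rise among the 9. Mafa was at 271, 369.8 and 296 FPKM, all above the PA libraries, and the log2 fold change was 0.60 (standard error 0.12, adjusted p = 0.00791). The spread of Mafa was wider in this group than with BSA, with coefficients of variation of 16.4% and 1.71% (n = 3 each), since replicate 2 was high. Isl1 was at 47.7, 40.8 and 43.4 FPKM, also clear of the PA libraries, and the log2 fold change was 0.52 (standard error 0.08, adjusted p = 0.00195).

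Nkx6-1, which had not passed the threshold with PA alone, was at 69.0, 84.4 and 74.6 FPKM with PA + C3G against 44.3, 62.7 and 49.2 FPKM with PA. Its lowest PA + C3G library was above its highest PA library. The log2 fold change was 0.58 (standard error 0.13, adjusted p = 0.0122), and it was 0.54 with an adjusted p of 0.0505 when PA replicate 3 was left out. Hnf4a was at 26.2, 27.2 and 27.4 FPKM, a tight group above all PA libraries. It rose by 0.42 on the log2 scale (standard error 0.10, adjusted p = 0.016), which became 0.41 with an adjusted p of 0.0518 without PA + C3G replicate 3. Nkx2-2 was at 104, 111 and 105 FPKM, well above the 85.1 to 87.2 FPKM of the PA group, and the log2 fold change was 0.34 (standard error 0.04, adjusted p = 0.000814).

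Neurod1 (141 to 161 FPKM), Pax6 (106 to 112 FPKM) and Foxa2 (48.0 to 49.8 FPKM) overlapped the PA libraries. Their log2 fold changes were 0.11 (95% interval −0.02 to 0.25), 0.02 (−0.08 to 0.11) and 0.04 (−0.07 to 0.15), with adjusted p of 0.225, 0.835 and 0.616. For Pax6 and Foxa2 the sign turned under TPM scaling, to −0.074 and −0.048.

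**Figure D2:**
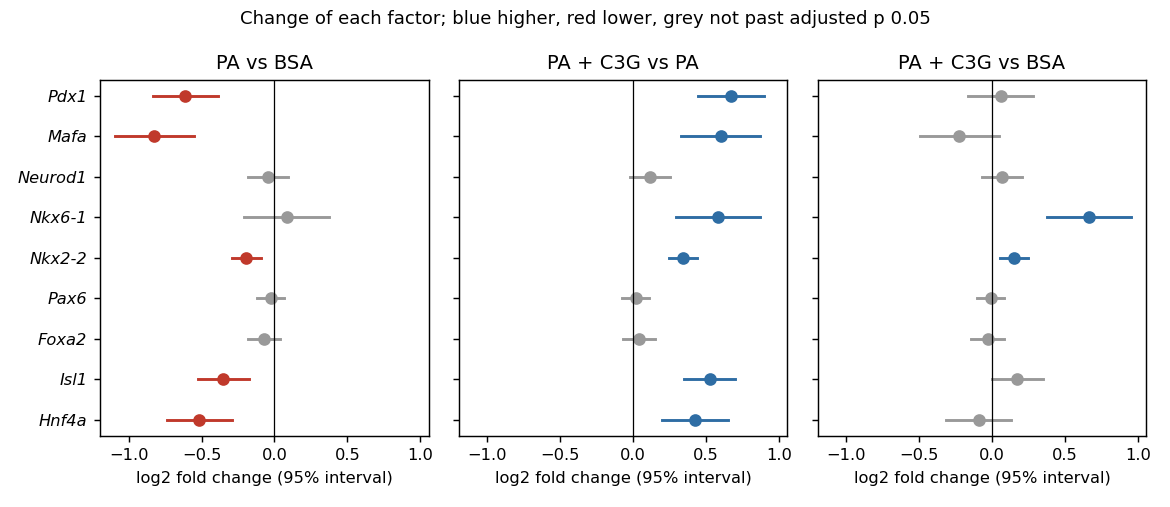
Log2 fold change of each factor (horizontal axis) with its 95% interval from edgeR in the 3 comparisons, blue for higher, red for lower and grey for an adjusted p-value above 0.05. With PA 5 factors lie to the left, with PA + C3G against PA 6 lie to the right, and against BSA Nkx6-1 and Nkx2-2 remain to the right.

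The PA + C3G group was also set against BSA, which shows where each factor ended. Nkx6-1 and Nkx2-2 were higher, none of the 9 was lower (0 also at an unadjusted p under 0.05 and with DESeq2 and limma), and 7 did not pass the threshold, against 19.0% higher and 17.9% lower among all genes. TPM scaling gave 1891 genes higher and 3038 lower, and limma 1850 and 3091, in place of 2462 and 2321. The FPKM of the groups did not overlap for 4 of the 9 factors (Nkx6-1 higher, and Mafa, Foxa2 and Hnf4a lower), against 50.3% of all genes. Nkx6-1 reached 152% of the BSA mean in FPKM, and its log2 fold change was 0.66 (standard error 0.13, adjusted p = 0.00302). For Nkx2-2 the log2 fold change was 0.15 (standard error 0.04, adjusted p = 0.0211), and the call was lost under several settings, with 0.091 and an adjusted p of 0.133 under TPM scaling. It was also lost without BSA replicate 1 or 3 and without PA + C3G replicate 2 or 3, with adjusted p from 0.0509 to 0.102.

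Pdx1 ended at 99.8% of the BSA mean in FPKM, with a log2 fold change of 0.06 and a 95% interval from −0.17 to 0.28 (adjusted p = 0.689). Mafa ended at 82.1%, and its 3 libraries were all below the controls in FPKM. Its log2 fold change of −0.22 (interval −0.49 to 0.05, adjusted p = 0.178) did not pass, but without PA + C3G replicate 2 it was −0.37 with an adjusted p of 0.0241. For Isl1 the change was 0.17 (interval −0.0017 to 0.35, adjusted p = 0.112), and without BSA replicate 1 it was 0.24 with an adjusted p of 0.0412. For Hnf4a it was −0.09 (interval −0.32 to 0.13, adjusted p = 0.509). Neurod1, Pax6 and Foxa2 had intervals of −0.07 to 0.21, −0.10 to 0.08 and −0.14 to 0.08.

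**Figure D3:**
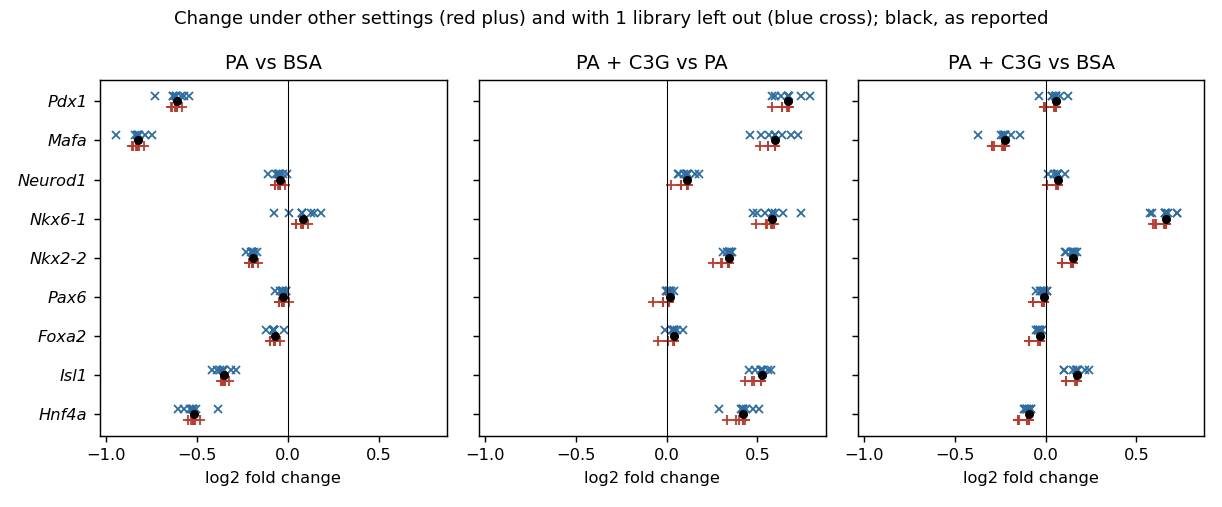
Log2 fold change of each factor (horizontal axis) as reported (black), under 10 other settings (red plus signs) and with 1 of the 9 libraries left out (blue crosses), in the 3 comparisons. For PA versus BSA the 5 factors that fell stay left of 0 in every fit, and for PA + C3G versus PA the 6 that rose stay right of 0.

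For some of the factors the highest library of each group had the same replicate number. The order of the other libraries was not always shared, as with Pdx1 and Isl1, and the share over all genes was not computed. Replicate 2 was the highest of its group in all 3 groups for Pdx1, Neurod1 and Nkx6-1, and replicate 1 in all 3 groups for Isl1. The coefficient of variation with BSA, PA and PA + C3G was 3.45%, 13.4% and 11.0% for Pdx1 and 2.70%, 16.4% and 2.45% for Hnf4a (n = 3 each). Each factor was also matched to the tested genes whose profile was most like it, measured as the root mean square difference over the 9 libraries between log2 CPM values (counts scaled to library size) centred on their own mean. For Pdx1, whose own spread was 0.33 on that scale, the nearest genes were Cacna1g (0.04), which encodes a T-type calcium channel, and Ffar3 (0.07), a receptor for short-chain fatty acids. For Mafa, with a spread of 0.38, they were Arhgef3 and Noct (both 0.08), and Noct was also among the 3 nearest to Pdx1 (0.09). Nnat, which encodes neuronatin, was nearest to Nkx6-1 (0.09, spread 0.34), and Adcyap1r1, the receptor of the islet neuropeptide PACAP, to Isl1 (0.06, spread 0.23). For Pax6 (spread 0.04) and Foxa2 (spread 0.06) the nearest genes were Med15 and Rnf115, both at 0.03, which for such flat profiles says little. Among the 36 pairs of the 9 factors, Pdx1 and Mafa differed by 0.13 whereas Mafa and Nkx6-1 were the farthest apart at 0.43.

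Other islet transcription factors were taken from a list of 20, of which 17 were in the table and 14 were tested. With PA, 8 were lower and 2 higher (median log2 fold change −0.30), against 25.2% and 25.8% of all tested genes. With PA + C3G against PA 5 were higher and 9 did not pass (median 0.10), against 11.1% higher and 10.2% lower of all tested genes. Mnx1, a homeodomain factor of the beta lineage, was at 64.1, 68.3 and 62.7 FPKM, then 24.5, 29.0 and 23.6 FPKM, then 43.6, 56.8 and 47.9 FPKM. No groups overlapped for Mnx1, and the log2 fold changes were −1.31 (adjusted p = 5.94e-06) and 0.98 (adjusted p = 0.000401). Myt1, Foxo1 and Esrrg also fell with PA, by 0.46, 0.56 and 0.55 on the log2 scale, and rose with PA + C3G, by 0.43, 0.26 and 0.34. Foxa1, the relative of Foxa2, and St18 were higher with PA, by 0.69 and 0.32, with log2 fold changes of 0.0019 and 0.11 for PA + C3G against PA that did not pass. Against BSA, the PA + C3G group had 2 of the 14 higher and 6 lower (median −0.13), against 19.0% and 17.9% of all tested genes. The number lower was 3 without BSA replicate 1 or PA + C3G replicate 3 and 2 without PA + C3G replicate 1. Mnx1 was among the lower ones (−0.33, adjusted p = 0.0305), a call lost without BSA replicate 1 or 2 or PA + C3G replicate 1 or 3 (adjusted p from 0.0557 to 0.0917).

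Among 10 tested partners and cofactors, 5 were lower and 1 higher with PA (median −0.14), against 25.2% and 25.8% of all tested genes. With PA + C3G against PA 3 were higher and 2 lower (median −0.039), against 11.1% and 10.2% of all tested genes. TPM scaling turned the partner counts to 1 higher and 3 lower, and the number lower was 1 without PA replicate 2 or 3 or PA + C3G replicate 1 or 3. Ldb1 and Ssbp3, which build complexes with Isl1, fell by 0.21 and 0.22 on the log2 scale with PA (adjusted p = 0.00123 and 0.00121) and rose by 0.16 and 0.18 with PA + C3G (adjusted p = 0.0155 and 0.0114). Both of these rises were lost under TPM scaling (0.072 and 0.095, adjusted p = 0.189 and 0.144), and that of Ldb1 also without PA replicate 1 or 3 or PA + C3G replicate 2 (adjusted p from 0.0503 to 0.0548). Pknox1, a partner of Pbx proteins, fell by 0.95 with PA and rose by 0.45 with PA + C3G. Spop, which encodes a ubiquitin ligase adaptor known to act on Pdx1 protein, went the other way, with means of 39.8 ± 1.08, 59.6 ± 2.15 and 51.0 ± 0.710 FPKM in the BSA, PA and PA + C3G groups (SD, n = 3 each). The changes on the log2 scale were 0.61 (adjusted p = 1.12e-06) and −0.19 (adjusted p = 0.00829). Tcf3 and Tcf12, which encode E proteins that pair with Neurod1, had log2 fold changes of −0.13 (adjusted p = 0.0334) and −0.079 (adjusted p = 0.411) with PA, and the call of Tcf3 was lost in several fits, with adjusted p up to 0.119. In PA + C3G against BSA 1 partner was higher and 3 were lower (median −0.11), against 19.0% and 17.9% of all tested genes. Under TPM scaling and both limma fits 6 partners were lower.

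Of 13 tested genes that these factors are known to activate, 8 were lower and 3 higher with PA (median log2 fold change −0.40). Of all tested genes, 25.2% were lower and 25.8% higher. With PA + C3G against PA 10 targets were higher and 3 did not pass (median 0.49), against 11.1% higher and 10.2% lower of all tested genes. Ins2, whose promoter is printed above, changed by −2.86 with PA and by 1.94 with PA + C3G, and Ins1 by −0.93 and 1.26, with reads that may have been divided between these paralogs. Slc2a2, the glucose transporter, changed by −2.28 and 0.78. Pcsk2, with a log2 fold change of 0.02 in PA versus BSA, did not pass there and rose by 0.42 with PA + C3G. In PA + C3G against BSA 5 targets were higher and 4 lower (median 0.15), against 19.0% and 17.9% of all tested genes. Ins2 at −0.91 and Slc2a2 at −1.51 were among the lower ones. Ins1 at 0.33 was among the higher, a call that limma did not make (0.26, adjusted p = 0.0665). The 3 targets that were higher with PA were Ucn3 (1.36), Abcc8 (0.44) and Kcnj11 (0.13), the last with a call lost in 10 of the 19 other fits. Among the 5 tested genes of a list of dedifferentiation and disallowed genes, 2 were higher with PA (Oat and Slc16a1, by 0.94 and 0.60) and 1 lower (Gast), with Acot7 (−0.25 and not called as reported) called lower in 9 of the 19 other fits, DESeq2 and limma among them. In PA + C3G against PA 3 of these 5 were lower (Oat, Slc16a1 and Myc, by 0.44, 0.64 and 0.65). Gast was higher there by 2.46, and of all tested genes 10.2% were lower and 11.1% higher. Against BSA 1 was higher (Oat, 0.50) and 1 lower (Myc, −0.50), beside 19.0% and 17.9% of all tested genes. Ldha, Hk2 and Rest were below 1 FPKM in every library.

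**Figure D4:**
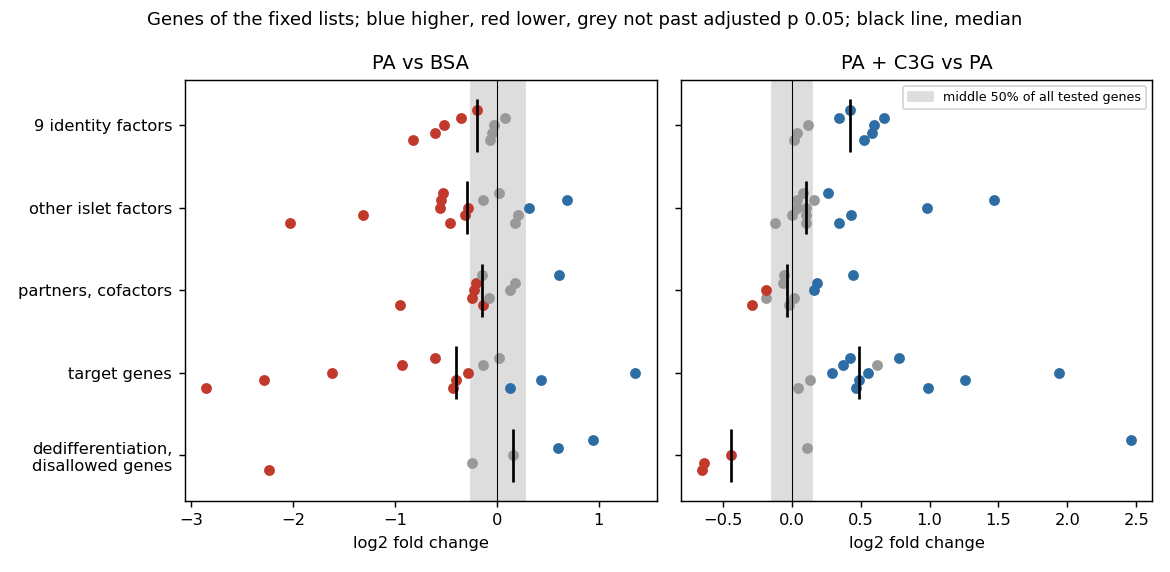
Log2 fold change (horizontal axis) of each tested gene of 5 lists in PA versus BSA and in PA + C3G versus PA, blue for higher, red for lower, grey for an adjusted p-value above 0.05, with the median of each list as a black line and the middle 50% of all tested genes shaded. The 9 identity factors have medians of −0.19 and 0.42, and the target genes −0.40 and 0.49.

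Markers of other pancreatic cells were measured as well. Of 6 alpha-cell markers 3 were in the table and Gcg alone was above 1 FPKM, at 31.2, 8.28 and 22.1 FPKM with BSA, 6.02, 1.35 and 3.35 with PA and 22.5, 4.17 and 13.2 with PA + C3G. Replicate 2 was the lowest for Gcg in each group, the reverse of Pdx1 and Nkx6-1. The summed alpha-cell list was 8.28 to 31.2 FPKM, 1.35 to 6.02 FPKM and 4.17 to 22.5 FPKM in the same order, with Irx1 and Ttr at 0 in 7 and 8 of the 9 libraries. Of the acinar and duct list 6 of 8 were in the table, summing to 87.9 to 127 FPKM with BSA, 115 to 152 with PA and 121 to 169 with PA + C3G, mostly from Krt7, while Cpa1, Cela1 and Krt19 were below 1 FPKM in every library. The delta, PP and epsilon list had 2 genes in the table, at a sum of at most 1.38 FPKM. The part of such cells in the changes of the 9 factors was not tested.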

How the data were processed

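Total RNA of INS-1E cells (9 libraries, 3 per group) was selected for poly(A), marked for strand with dUTP and sequenced as 2 × 150 bp. The submitters' processing notes name cutadapt 1.9, HISAT2 2.0.4, StringTie 1.3.4d, DESeq2 and edgeR. The genome build is not given in the sources used here, so gene positions are those of the deposited table. The authors deposited estimated counts per gene, not normalized, and FPKM, scaled to gene length and mapped fragments. Counts of 4 were 2.44 times as frequent as the mean of 3 and 5, so 1 fragment may weigh several counts and totals overstate the depth. Replicate numbers and the group of each library came from the sample titles, which read control, palmitic acid treated and cyanidin-3-o-glucoside treated. The titles name neither BSA for the controls nor PA for the C3G libraries. Both of these, and the doses, came from the methods.

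Counts were rounded (all were whole) and tested with edgeR 4.0.16 in R 4.3.3 (TMM, quasi-likelihood, all 9 libraries) over the 12958 genes whose FPKM averaged 1 or more, with Benjamini-Hochberg adjustment and 95% intervals from the same fit. Standard errors were taken from the F statistic. The procedure was run on simulated data in which far fewer genes were changed than were called here. That run therefore does not show how the scaling behaves under so many changes. Alternatives were DESeq2 1.42.0, limma 3.58.1 on log2(FPKM + 1) and log2(FPKM + 0.1), median-ratio size factors, equal FPKM sums (TPM scaling), all genes kept, genes averaging 5 FPKM or more, only the groups compared, a replicate block, counts divided by 4, and each library left out. The 9 factors and all gene lists were chosen with earlier results of these data known. Named genes were the 9 factors, genes of the lists (other islet factors, partners, targets, dedifferentiation and disallowed genes, and markers of beta, alpha, delta, PP, epsilon, acinar, duct, stromal, endothelial and immune cells) and up to 3 nearest profiles per factor. Listed genes without a row under their symbol are not analysed here, and 2 listed genes are not reported here. Promoter windows were matched by symbol to RefSeq (GRCr8), a build that may differ from that of the table.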

Additional observations from a re-analysis of the deposited data

How the results depend on the processing

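Across the 10 other settings, the 5 factors that fell with PA and the 6 that rose with PA + C3G against PA kept their direction and stayed past the threshold. With each library left out in turn this also held, except for Nkx6-1 without PA replicate 3 and Hnf4a without PA + C3G replicate 3, both in PA + C3G versus PA. The number of factors higher in PA + C3G than in BSA went from 2 to 1 with TPM scaling, with both limma fits and with only the 2 groups compared, since Nkx2-2 was no longer called (adjusted p from 0.0554 to 0.133). With libraries left out it ranged from 1 to 2 and the number lower from 0 to 1, Mafa being lower without PA + C3G replicate 2. The genes called in PA + C3G versus PA ranged from 1718 (without PA replicate 3) to 2838 with 1 library left out, against 1436 higher and 1316 lower as reported, and the cause was not tested.

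Signs turned only for changes that passed no threshold. These were Pax6 in PA versus BSA under TPM scaling (0.0042), Pax6 in PA + C3G versus PA under TPM scaling (−0.074) and limma (−0.021 with a pseudocount of 1 and −0.022 with 0.1), Foxa2 in PA + C3G versus PA under TPM scaling (−0.048), and Pdx1 in PA + C3G versus BSA under limma (−0.0080 with 1 and −0.00805 with 0.1). With 1 library left out, signs turned for Nkx6-1 in PA versus BSA (−0.077 to 0.18), Pax6 (−0.0022 to 0.039) and Foxa2 (−0.0087 to 0.091) in PA + C3G versus PA, and Pdx1 (−0.034 to 0.12) and Pax6 (−0.055 to 0.0075) in PA + C3G versus BSA.

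Deviations from the group means correlated between same-numbered libraries at r from −0.0473 to 0.105 across genes, so the numbers were not taken to pair the samples. Each of the 6 libraries correlated best with its own number between PA and PA + C3G, and 3 of 6 did so in either comparison with BSA, a hint from the data and not from the design. The replicate block gave 3118 genes for PA + C3G versus PA and made Isl1 higher in PA + C3G than in BSA (0.17, adjusted p = 0.019).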

Other observations

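With PA several genes of the lists moved further than any of the 9 identity factors. Bhlha15, a helix-loop-helix factor of secretory cells that also marks acinar cells, was at 3.46, 5.46 and 4.54 FPKM with BSA, 24.0, 24.4 and 23.7 FPKM with PA and 17.3, 16.7 and 18.2 FPKM with PA + C3G. The groups did not overlap, and the rise with PA was 2.45 on the log2 scale (edgeR, adjusted p = 4.5e-07), with a change of −0.43 from PA to PA + C3G (adjusted p = 0.0371) that did not pass with any 1 of the PA or PA + C3G libraries left out, or without BSA replicate 3. Sox9, a factor of duct and progenitor cells, was lower in level, at 2.52 to 2.72 FPKM with BSA, 4.52 to 5.86 FPKM with PA and 3.05 to 3.87 FPKM with PA + C3G, with log2 fold changes of 0.94 and −0.47 (adjusted p = 0.000209 and 0.0281). The second of these was lost without PA replicate 2 or PA + C3G replicate 1 or 2 and with only the 2 groups compared.

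Ucn3, a marker of mature beta cells, was at 33.6, 69.5 and 52.6 FPKM with BSA, 84.0, 187 and 120.1 FPKM with PA and 134, 252 and 201 FPKM with PA + C3G. Replicate 2 was the highest of each group. Against BSA it was higher both with PA (log2 fold change 1.36, adjusted p = 0.00869) and with PA + C3G (1.98, adjusted p = 0.00181), while Mafa, Pdx1 and Ins2 fell with PA. Gast, the gastrin gene, which is placed among dedifferentiation genes, fell by 2.24 on the log2 scale with PA (adjusted p = 0.00143) and rose by 2.46 with PA + C3G against PA (adjusted p = 0.0035), from 0.916 ± 0.551 FPKM (SD, n = 3) to 4.92 ± 1.48 (n = 3).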
